A study of Mus musculus with 12 samples.

Results

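The 8 libraries described here hold RNA that came down with antibodies to the m6A readers Ythdf1 and Ythdf2 from mouse cortex and mouse retina. In RNA immunoprecipitation followed by sequencing (RIP-seq), a protein is pulled down with an antibody and the RNA that stays with it is sequenced. The comparison takes the 4 cortex immunoprecipitates (IPs) against the 4 retina IPs, out of 12 libraries in the series. The other 4 libraries are inputs, the RNA before the pull-down, with 2 in each tissue. They were kept out of the fit and give the background of each tissue difference. All tissue came from wild-type C57BL/6 mice, the cortex at embryonic day 12.5 and the retina at postnatal day 0, so that tissue and age cannot be told apart. Each tissue has 2 Ythdf1 and 2 Ythdf2 IPs, and the antibody was a covariate of the fit. The labels do not say whether replicates came from separate animals, so the p-values measure the spread between these libraries, which may be technical. No IP with an unrelated antibody was analysed here.

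N6-methyladenosine (m6A) is a methyl mark on adenosines of mRNA, placed by a writer complex around Mettl3 and Mettl14 and removed by Fto and Alkbh5. Ythdf1, Ythdf2 and Ythdf3 are cytoplasmic proteins that bind the mark through their YTH domain. Ythdf2 is best known for bringing marked mRNAs to the deadenylation machinery, and Ythdf1 for its link to translation. The cortex at this embryonic age consists mainly of dividing radial glia and the earliest neurons. The newborn retina holds late progenitors beside ganglion, amacrine and horizontal cells and young photoreceptors. An IP level depends on how much of an RNA a tissue holds and on how much of it comes down, and in these bulk samples fewer cells of a type and less RNA per cell cannot be told apart.

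Library totals ran from 19530226 to 40515980 counts, but ribosomal RNA took most of each IP, so that protein-coding genes held 2083594 to 12923209 counts per IP. Ribosomal RNA made up 85.4% to 87.9% of the counts in the retina IPs and 57.9% to 82.7% in the cortex IPs. That difference reached p = 0.0286 in an exact two-sided permutation test over libraries, the smallest p that 4 against 4 allows, and 0.114 after adjustment over 4 composition measures. Spearman correlations of expression were 0.941 to 0.974 within a group, 0.888 to 0.956 between the antibodies of a tissue and 0.695 to 0.77 between tissues, over 14228 genes that share library and depth. The library labelled cortex input replicate 1 stood apart. Only 4.65% of its counts were protein-coding, 39.6% of those were mitochondrial, and it held 8967 counts of Camk2a, a marker of mature neurons, against 9 to 619 in the other libraries. Input results are therefore given without it, and the values with both cortex inputs stand beside them.

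Of 52550 genes, 14228 had at least 10 counts in at least 4 of the 8 IPs and were tested with edgeR's quasi-likelihood test. The IPs of the 2 tissues differed widely. At a Benjamini-Hochberg adjusted p under 0.05, 2773 genes (19.5%) were higher in the retina IPs and 3253 (22.9%) in the cortex IPs, together 42.4% of the genes tested. Changes of at least 2-fold made up 2141 of the former (15% of genes tested) and 2724 of the latter (19.1%), together 34.2%. The levels of the 4 retina and the 4 cortex libraries did not overlap for 5600 genes (39.4%). Scaling bears on the split: with library totals in place of the trimmed mean of M values (TMM), 599 genes were higher in retina and 5503 in cortex, and the median over all genes moved from -0.04 to -0.98 on the log2 scale. With limma on log2(FPKM + 1) the counts were 625 and 5281, and on log2(FPKM + 0.1) 700 and 5677. With library totals many retina-higher differences change sign or lose their call, and not only those smaller than this shift. At least 2-fold rises numbered 2141 with TMM, while 599 genes in all were called higher in retina with library totals. The named genes concerned are given where they are described. Counts of list members below stand beside 19.5% of all genes higher in retina and 22.9% higher in cortex. Below, log2 differences are retina minus cortex, levels are CPM, counts scaled to a common library size with TMM factors, and a gene rose or fell only where its adjusted p was under 0.05.

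The sharpest retina signal came from genes of the eye field and of photoreceptors. Rbp3, which encodes the retinoid-binding protein of the photoreceptor matrix (GRCm38, chr14:33954003-33964216, plus strand), had 359 and 343 CPM in the retina Ythdf1 IPs and 151 in each of the retina Ythdf2 IPs. In the 4 cortex IPs it held 3 counts in all, which gave a ratio of 16000 with a 95% counting interval of 5460 to 77400. Prph2, a structural protein of outer segment discs (chr17:46910459-46924933), had 28.6, 26.1, 15.7 and 19.3 CPM in the retina IPs and was listed at 0 in every cortex IP. Against a floor of 3 counts per library it was at least 243-fold higher in retina. On the same floor Six6, an eye-field homeobox factor, was at least 238-fold higher, Nrl, the factor that specifies rods, at least 173-fold, Hmx1 at least 164-fold and Krt73 at least 122-fold. Fitted log2 values of genes listed at 0 depend on the prior count and are not read here. Each of these genes was at or near 0 in all cortex IPs and present in all 4 retina IPs.

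**Figure D1:**
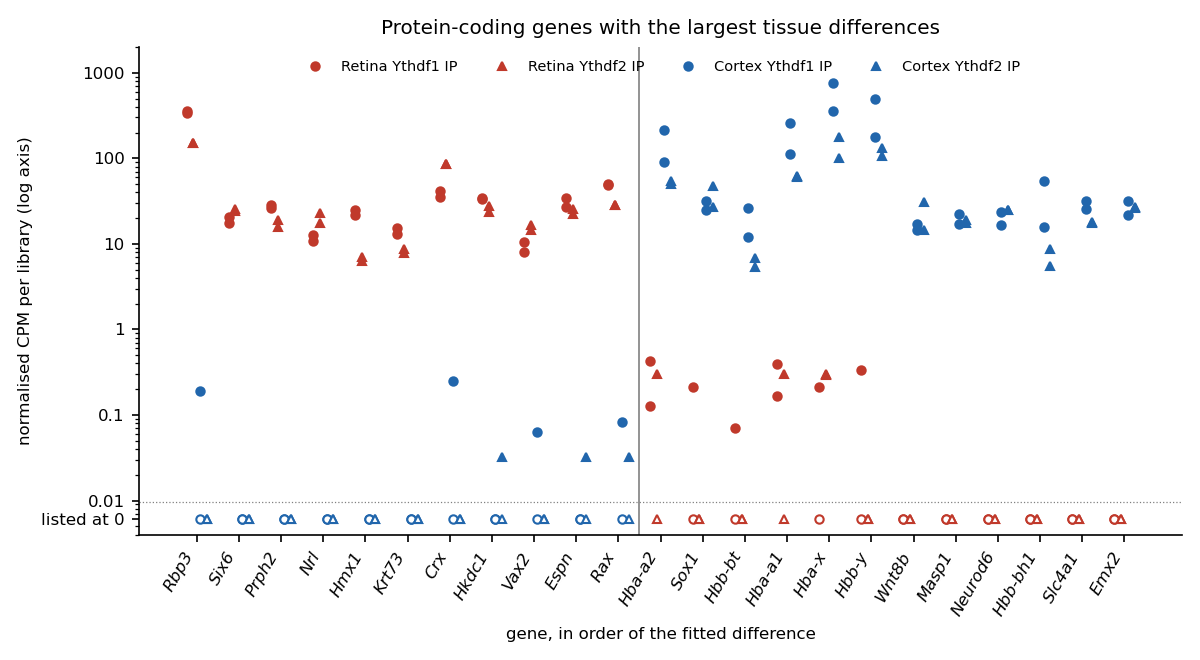
Normalised CPM on a log axis in each of the 8 reader IPs for the protein-coding genes with the largest differences, ordered by the fitted difference, with circles for Ythdf1 and triangles for Ythdf2, red for retina and blue for cortex. Open symbols under the dotted line are libraries in which the gene is listed at 0. For Crx the retina libraries lie between 35.6 and 85.4 CPM and 3 of the 4 cortex libraries are listed at 0.

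Of 34 listed photoreceptor markers 24 rose and none fell. The filter was passed by 26, and a gene that passed only through its level in the retina IPs had to differ, so that the share among those tested is a description. With no filter 27 of 32 rose. Among the 26 the median log2 difference was 6.02, or 5.85 with the 5 genes listed at 0 in the cortex set at their bound, against -0.04 over all genes. Their summed level was 422 to 457 CPM in the retina IPs and 26.9 to 39.4 in the cortex IPs. Isoc1 (0.32) and Gnat1, the rod transducin (1.98), were tested and did not pass. Genes below the filter included Rcvrn, Guca1a, Pde6b, Opn1mw, Impg1, Arr3 and Cnga1, several of which belong to the mature transduction cascade. Crx, the homeobox factor of photoreceptor precursors (chr7:15865947-15879968, minus strand), had 41.8 and 35.6 CPM in the retina Ythdf1 IPs and then 85.4 and 84.96 with Ythdf2, against 0, 0.251, 0 and 0 in cortex. Its difference was 11.22 ± 0.88 (SE, adjusted p = 9.774e-06). Otx2, which acts upstream of Crx, was also present in cortex (3.01 to 9.89 CPM) and rose by 2.79 ± 0.37 to 36.0 to 50.6 CPM.

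Crx and Otx2 read the DNA core TAATCC, and the photoreceptor genes were therefore examined for it in RefSeq promoters (GRCm38.p6, 250 bases before to 50 after each start, both strands, no other motif searched). The 24 genes that rose had 26 promoters for 20 matched genes, and 7 promoters (26.9%) held the core. The share was 28.1% over the whole photoreceptor list, 5.89% over protein-coding genes that rose in retina, 5.48% over all protein-coding genes tested and 7.06% over all promoters in the table. A match is a description of these windows and not a bound site. The 250 bases before the start are shown for 4 of these genes, 5′ to 3′ on the gene's strand, with the core or its complement (GGATTA) in capitals.
Crx (chr7:15879956-15880205, minus strand): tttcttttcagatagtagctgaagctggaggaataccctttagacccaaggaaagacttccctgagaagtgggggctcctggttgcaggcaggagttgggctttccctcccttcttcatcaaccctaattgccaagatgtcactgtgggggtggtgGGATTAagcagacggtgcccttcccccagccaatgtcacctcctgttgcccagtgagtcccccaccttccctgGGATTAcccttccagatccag
Gnat2 (chr3:108092816-108093065, plus strand): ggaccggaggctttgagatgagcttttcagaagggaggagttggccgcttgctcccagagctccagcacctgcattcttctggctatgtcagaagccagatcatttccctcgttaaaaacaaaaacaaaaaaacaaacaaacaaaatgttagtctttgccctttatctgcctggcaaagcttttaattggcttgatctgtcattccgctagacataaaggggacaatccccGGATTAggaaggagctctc
Sag (chr1:87803430-87803679, plus strand): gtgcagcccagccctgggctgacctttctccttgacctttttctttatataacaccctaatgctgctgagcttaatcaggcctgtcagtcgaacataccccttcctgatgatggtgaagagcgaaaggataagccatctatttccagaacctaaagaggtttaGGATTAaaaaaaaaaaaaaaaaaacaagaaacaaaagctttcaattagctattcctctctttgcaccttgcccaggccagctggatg
Aipl1 (chr11:72037510-72037759, minus strand): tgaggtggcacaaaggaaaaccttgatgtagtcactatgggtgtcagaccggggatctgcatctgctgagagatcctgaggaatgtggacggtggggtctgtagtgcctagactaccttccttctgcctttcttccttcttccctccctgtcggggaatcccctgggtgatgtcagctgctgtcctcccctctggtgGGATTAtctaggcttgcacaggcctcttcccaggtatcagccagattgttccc
The upstream match nearest the start lies 15 bases before it in Crx, 13 in Gnat2, 81 in Sag and 47 in Aipl1. The Aipl1 promoter window holds 2 matches, of which only 1 lies in the bases shown. Gnat2, the cone transducin, had 3.10, 5.27, 3.88 and 1.63 CPM in the retina IPs and at most 0.188 in cortex, a difference of 5.08 ± 0.48 (adjusted p = 2.7e-05). Sag, rod arrestin, had 4.99, 3.97, 8.40 and 6.32 CPM in retina and at most 0.195 in cortex (5.90 ± 0.53). Aipl1, a chaperone of rod phosphodiesterase, had 0.886 to 2.03 CPM in retina and was listed at 0 in 3 of 4 cortex IPs (6.43 ± 0.91). All 3 were low in CPM even in the retina IPs, and none overlapped between tissues.

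Retinal progenitor factors rose as a group but with exceptions. Of 34 genes, all tested, 24 rose and 5 fell, with a median of 3.33. Rax, an eye-field factor, had 50.1, 48.8, 28.8 and 28.3 CPM in the retina IPs and no more than 0.0826 in the cortex IPs (9.96 ± 0.44, adjusted p = 9.213e-07). Foxn4 rose by 9.35 ± 0.66, Atoh7, needed for ganglion cells, by 6.18 ± 0.63, and Sox8 by 4.72 ± 0.24. Pax6, used by progenitors of both tissues, had 80.6 to 91.6 CPM in the retina IPs and 29.5 to 34.2 in the cortex IPs (1.42 ± 0.19), a call that ended with library totals (0.49, adjusted p = 0.397). The 5 that fell are shared with the embryonic forebrain: Zic1 (-2.40), Sox2 (-2.13), Sox9 (-1.35), Zic5 (-1.16) and Lhx2 (-0.82).

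Among 27 tested ganglion cell markers 15 rose (55.6%) and 6 fell (22.2%), with a median of 1.28. Among 22 amacrine, horizontal and bipolar markers 12 rose (54.5%) and 6 fell (27.3%), with a median of 1.44. Of all genes 19.5% rose and 22.9% fell, so the shares that fell lie near the background and are no result about the lists. With library totals 11 and 8 ganglion cell markers were called (median 0.26), and 7 and 7 of the others (median 0.49). The summed level of the ganglion cell list was 110 to 139 CPM in retina and 129 to 163 in cortex, so the 2 ranges overlapped. That of the amacrine, horizontal and bipolar list was 203 to 242 CPM in retina and 245 to 290 in cortex. It was thus higher in cortex, without overlap, although more members rose than fell. Pou4f2 and Pou4f1, ganglion cell POU factors, rose by 7.06 ± 0.71 and 4.65 ± 0.49. Ptf1a, which directs amacrine and horizontal fate, had 2.77 to 4.43 CPM in retina and 1 cortex library above 0, at 0.0325 (7.67 ± 0.61), and Tfap2a rose by 4.26 ± 0.34. Cntn2, an axonal adhesion molecule, had 35.3 to 64.2 CPM in cortex and 2.43 to 5.78 in retina (-3.73 ± 0.32), Slc17a6, a glutamate transporter, fell by 3.45 on the log2 scale, and Elavl4 by 2.49.

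In the cortex IPs the genes that pattern the dorsal telencephalon stood out. Of 31 tested patterning and progenitor genes, 27 were higher in cortex and 2 in retina, Pax6 and Hopx, both lost with library totals (Hopx 1.36 to 0.37), with a median of -5.13, or -4.83 with 6 genes at 0 set at their bound. Emx2, a homeobox factor of the cortical primordium (chr19:59458372-59465357), had 21.9, 31.8, 26.1 and 27.1 CPM in the cortex IPs, was listed at 0 in every retina IP and was at least 182-fold lower there. It overlaps the antisense gene Emx2os, from which its reads cannot be told apart here because the strand setting of the counting is not given. Wnt8b, a Wnt ligand of the cortical hem side, was at least 131-fold lower in retina. Pou3f3, a POU factor, fell by 6.11 ± 0.38 on the log2 scale.

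Cortical neuron genes were also mostly higher in the cortex IPs, 17 of 28 against 3 that rose in retina (median -1.78). Neurod6 had 23.5, 16.4, 24.8 and 25 CPM in cortex, was listed at 0 in all retina IPs and was at least 153-fold lower. Tbr1, a factor of early glutamatergic neurons, had 51.7, 47.9, 39.7 and 54.8 CPM in cortex and 0.677, 0.548, 0.290 and 0.602 in retina (-6.50 ± 0.30, adjusted p = 9.213e-07). Bcl11b, a factor of subcerebral projection neurons, fell by 4.95 ± 0.39 on the log2 scale. The 3 that rose in retina, Neurod1 (2.72), Insm1 (1.53) and Btg2 (1.46), are general neurogenic genes. The calls of Insm1 and Btg2 ended with library totals (0.61 and 0.48), and Neurod1 is also on the photoreceptor list. Cajal-Retzius markers followed the cortex, with 9 of 16 higher there and 2 in retina, including Trp73 at 13.5 to 20.3 CPM in cortex and 0.174 to 1.53 in retina. Of 14 ventral telencephalic markers 6 were higher in cortex (42.9%) and 5 in retina (35.7%), beside 22.9% and 19.5% of all genes. With library totals these were 8 and 3.

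Radial glia genes also fell more often than they rose (10 and 4 of 25, median -0.53). These are 40% and 16%, beside 22.9% and 19.5% of all genes. Nes, the intermediate filament of neural progenitors, had 165, 116, 164 and 305 CPM in the cortex IPs and 7.49, 9.11, 6.95 and 9.57 in the retina IPs (-4.45 ± 0.34). Sox1 had 24.6 to 47.8 CPM in cortex and was above 0 in 1 retina library (0.211 CPM). Gja1, a gap junction gene of radial glia and astrocytes, had 24.3 to 45.5 CPM in cortex and 0.290 to 0.844 in retina (-5.81 ± 0.28). It is on the astrocyte and oligodendrocyte list and not among the 25 radial glia genes. The 4 that rose were Hes5 (2.86), Notch1 (1.59), Tnc (1.44) and Slc1a3 (1.37), of which all but Hes5 lost their call with library totals (0.41 to 0.63).

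Markers of blood and meninges moved with the cortex group, and their part in the tissue differences was not tested. Of 12 tested erythroid genes 11 were higher in cortex, and Bpgm, which many tissues express, was higher in retina (0.75, or -0.13 with library totals). Their summed level was 416 to 1893 CPM in the cortex IPs and 18.1 to 21.8 in the retina IPs. Hba-x, an embryonic globin, had 360, 755, 102 and 177 CPM in cortex and at most 0.301 in retina (-10.59 ± 0.86), Hbb-y fell by 11.42 on the log2 scale, and Slc4a1 was at least 157-fold lower in retina. Hba-a1 and Hba-a2 are near-identical copies whose counts are uncertain. Meningeal and mesenchymal genes were higher in cortex for 8 of 12, with Col3a1 at -8.65 and Col1a1 at -8.54. They summed to 24.6 to 31.4 CPM in the retina IPs. In cortex the sums were 444 and 607 CPM with Ythdf1 and 86.2 and 130.5 with Ythdf2. Igf2, which is on this list and is described below, made up most of the cortex Ythdf1 sums. The endothelial list gave values in both directions. Of its 13 tested genes 9 were higher in cortex, and Kdr (3.70), Cldn5 (2.57, lost with library totals at 1.55) and Slc2a1 (2.35) rose, and the summed level was 153 to 316 CPM in retina and 36.1 to 63.1 in cortex. Microglial genes were higher in cortex for 3 of 9, and no lens gene of 18 and no Hox gene of 39 passed the filter. Of 4 tested pigment cell genes 2 were higher in cortex, with Ttr at -7.29, and Rlbp1, which Müller glia and pigment epithelium share, in retina (1.502, lost with library totals at 0.58).

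**Figure D2:**
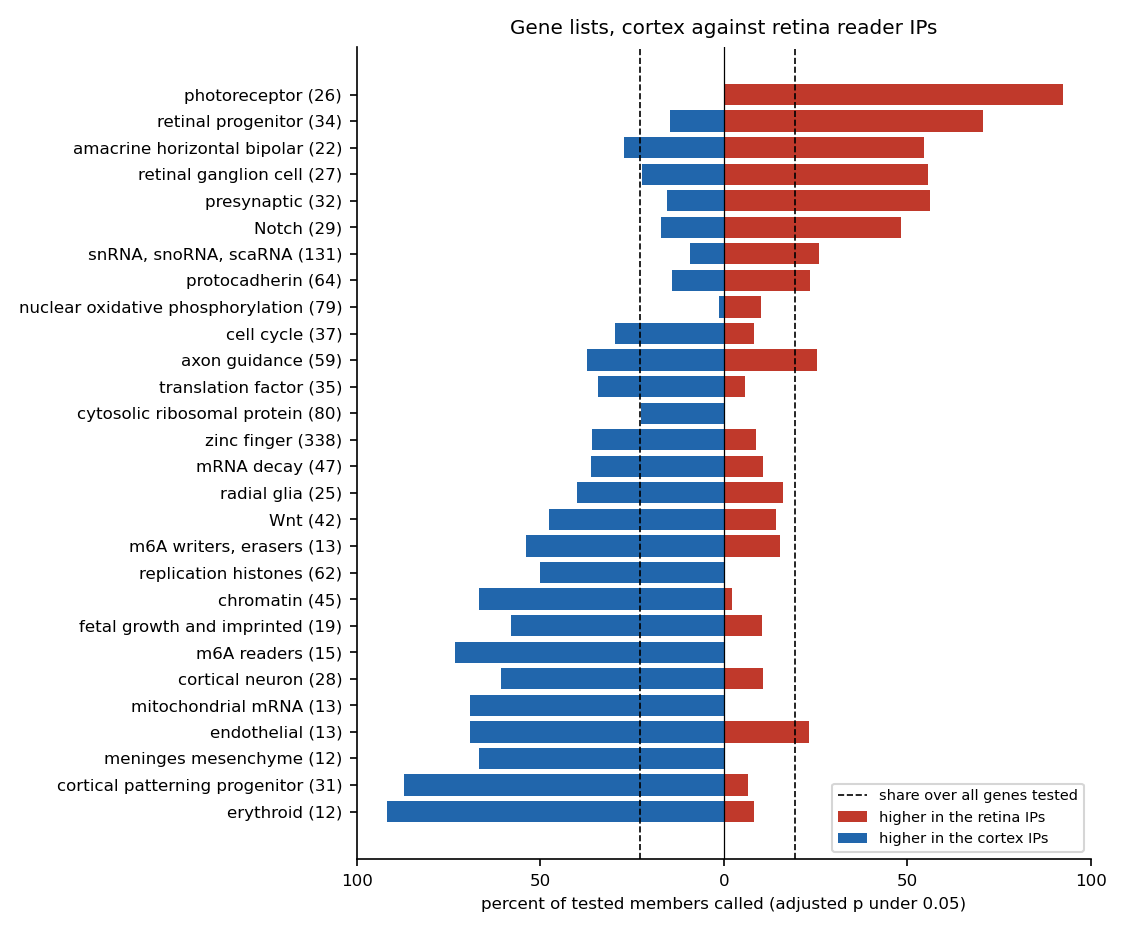
Percent of tested members of 28 gene lists called higher in the retina IPs (red, to the right) or in the cortex IPs (blue, to the left), ordered by median difference, with the number tested in brackets. Dashed lines mark the shares over all genes tested, 19.5% and 22.9%. Photoreceptor genes lie at 92.3% to the right and erythroid genes at 91.7% to the left.

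Of 37 cell cycle genes 3 rose (5 without cortex Ythdf1 replicate 2) and 11 fell, 8.11% and 29.7% against 19.5% and 22.9% of all genes. Their median was 0.04, close to the -0.04 of all genes. With library totals 2 rose and 15 fell, with a median of -0.90. The D cyclins, which drive G1 progression, went opposite ways. Ccnd1 (chr7:144929931-144939925) had 294 and 298 CPM in retina with Ythdf1 and 671 and 644 with Ythdf2, against 21.7, 20.9, 26.5 and 21.7 in cortex (4.29 ± 0.32, adjusted p = 7.509e-06). Ccnd2 (chr6:127125162-127152193) had 292, 178, 384 and 197 CPM in cortex and 2.03, 2.40, 3.48 and 2.95 in retina (-6.61 ± 0.36, adjusted p = 1.69e-06). The inputs showed the same contrast, with Ccnd1 at 573 and 394 CPM in retina and 7.17 and 32.4 in cortex, and Ccnd2 at 0.652 and 1.17 in retina and 15.3 and 153 in cortex. E2f1, a driver of S-phase genes, rose by 3.79 ± 0.45 and Birc5 by 0.99 ± 0.22 (0.06 with library totals). Mki67, the proliferation antigen, had 531, 244, 244 and 214 CPM in cortex and 17.9, 18.8, 10.3 and 12.4 in retina (-4.37 ± 0.32). The kinetochore motor Cenpe fell by 3.88 on the log2 scale and Cenpf by 3.02. In the inputs without cortex input replicate 1 these 3 differed by -1.26, -0.55 and -0.74, and the IP difference did not pass against the input difference for any of them (adjusted p = 0.0873, 0.113 and 0.149). With both cortex inputs Mki67, Cenpe and Cenpf differed by -0.33, 0.32 and 0.20 in the inputs (adjusted p = 0.183, 0.167 and 0.248 for the IP difference against them).

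Notch pathway genes rose more often than they fell, 14 against 5 of 29 (median 0.60). These are 48.3% and 17.2%, beside 19.5% and 22.9% of all genes. With library totals the counts were 5 and 8 and the median -0.46, so the direction of the list depends on the scaling. Ligands split: Dll4 had 15.6 to 26.4 CPM in retina and 0.606 to 1.70 in cortex (4.15 ± 0.36), whereas Jag1 had 0.361 to 1.90 in retina and 9.54 to 15.1 in cortex (-3.48 ± 0.39), and Dll1 did not pass (-0.19 ± 0.30). Of the receptors Notch1 rose (1.59 ± 0.30; with library totals 0.63, adjusted p = 0.392) and Notch3 fell by 1.88 on the log2 scale. Among the targets Heyl rose by 4.66 ± 0.35, Hes5 by 2.86 ± 0.29 and Hes6, an antagonist of Hes1, by 2.94 ± 0.28. Hes1 itself did not pass (0.37 ± 0.26).

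Wnt pathway genes were higher in cortex for 20 of 42 (47.6%) and in retina for 6 (14.3%), with a median of -0.91. The secreted inhibitor Sfrp1 had 52.7 to 90.8 CPM in cortex and 4.53 to 7.76 in retina (-3.53 ± 0.24), and the nuclear effector Lef1 fell by 2.42 on the log2 scale. The receptor Fzd5, known for its role in the eye field, rose by 6.51 ± 0.54 and Dkk3 by 5.84 ± 0.29, from 2.20 to 3.96 CPM in cortex to 185 to 198 in retina. Of 59 axon guidance genes 15 were higher in retina (25.4%) and 22 in cortex (37.3%), beside 19.5% and 22.9% of all genes. With library totals these were 4 and 28, with a median of -1.17 in place of -0.19. The netrin receptor Dcc had 69.7 to 159 CPM in cortex and 8.78 to 11.01 in retina (-3.41 ± 0.28), and the ephrin receptor Epha8 had 57.2 to 91.7 CPM in retina and at most 0.303 in cortex (8.48 ± 0.28).

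Presynaptic genes rose for 18 of 32 (56.2%) and fell for 5 (15.6%), with a median of 0.87. Of all genes 19.5% rose and 22.9% fell. With library totals 9 rose and 8 fell, with a median of -0.06. Syt1, the calcium sensor of vesicle release, had 24.2, 29.1, 48.7 and 42.1 CPM in the retina IPs and 8.51, 8.98, 4.26 and 3.49 in the cortex IPs (2.58 ± 0.38). Syp rose by 2.30 ± 0.25 and Sv2b by 2.31 ± 0.28, which did not pass on log2(FPKM + 1) (0.52, adjusted p = 0.0612). Among 16 mature neuron genes 8 rose (50%) and 3 fell (18.8%). Among 11 astrocyte and oligodendrocyte genes 7 rose (63.6%) and 3 fell (27.3%). The rises were led by Cnp (3.50) and Glul (2.59), which Müller glia also use. Gja1, described above with the radial glia genes, was among the glial genes that fell. With library totals 3 mature neuron genes rose and 6 fell (median -0.22), and 3 and 4 of the glial genes.

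The mRNAs of the readers themselves were compared as levels in the IPs, which are no measure of the proteins. No member of 15 m6A reader genes rose and 11 fell (median -1.58). Their median input difference was -1.14 without cortex input replicate 1 and -0.61 with both cortex inputs. Ythdf1 mRNA had 23.2, 25.3, 22.0 and 18.7 CPM in the retina IPs and 16.8, 13.6, 15.5 and 20.1 in the cortex IPs, ranges that overlapped (0.43 ± 0.21, adjusted p = 0.117), and with library totals the difference was -0.54. Ythdf2 mRNA did not pass either (-0.50 ± 0.30, adjusted p = 0.211). Ythdf3 fell from 32.1, 18.3, 30.3 and 43.5 CPM in cortex to 12.7, 14.3, 13.8 and 12.1 in retina (-1.21 ± 0.25, adjusted p = 0.00339). The nuclear reader Ythdc1 fell by 2.23 ± 0.22 on the log2 scale. Igf2bp1, an RNA-binding protein counted among m6A readers and abundant in fetal tissue, had 82.9 to 96.5 CPM in cortex and 21.8 to 25.03 in retina (-1.98 ± 0.20).

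Among 13 writer and eraser genes 7 fell (53.8%) and 2 rose (15.4%), beside 22.9% and 19.5% of all genes. With library totals 8 fell and none rose. Zc3h13, a scaffold of the writer complex (chr14:75284373-75344426), had 50.4, 23.7, 44.5 and 48.1 CPM in cortex and 1.92, 1.73, 1.91 and 2.89 in retina (-4.30 ± 0.30, adjusted p = 4.905e-06). Mettl14 fell by 1.79 ± 0.30 and Virma by 1.22 ± 0.22, whereas the catalytic Mettl3 (0.18 ± 0.32) and Wtap (0.35 ± 0.22) did not pass. The 2 that rose were the erasers. Alkbh5 had 40.9, 38.3, 78.6 and 73.9 CPM in retina and 27.8, 15.6, 25.8 and 24.3 in cortex (1.24 ± 0.25, adjusted p = 0.00306; with library totals 0.26, adjusted p = 0.651), and Fto rose by 0.74 ± 0.19 (adjusted p = 0.0105), which became -0.18 with library totals. None of the 13 passed for the IP difference minus the input difference, with or without cortex input replicate 1.

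Several broad regulatory lists leaned to the cortex. Of all genes 22.9% fell and 19.5% rose. The shares that fell were 66.7% for chromatin, 57.9% for fetal growth and imprinted and 56.2% for temporal genes. They were 36.2% for mRNA decay, 34.3% for translation factor and 35.8% for zinc finger genes. The shares that rose were 2.22%, 10.5%, 18.8%, 10.6%, 5.71% and 8.88% in the same order, and the temporal one lies near that of all genes. Chromatin regulators fell for 30 of 45 (median -1.18) and only Setd1a rose (0.81, or -0.135 with library totals), including Chd1 (-2.63), Chd3 (-2.52), Hdac2 (-2.50), Ezh2 (-1.82) and Kmt2a (-1.75). Fetal growth and imprinted genes fell for 11 of 19 and rose for 2. Hmga2, a chromatin protein of early progenitors, had 19.1 to 30.9 CPM in cortex and 0.506 to 1.56 in retina (-4.55 ± 0.40), whereas its relative Hmga1 (1.87 ± 0.38) and Trim71 (1.86) rose, calls that ended with library totals (0.93 and 0.83). Among temporal factors 9 of 16 fell and 3 rose (5 without cortex Ythdf2 replicate 2). Nfia and Nfib fell by 3.95 ± 0.36 and 4.33 ± 0.32 on the log2 scale, and Casz1, a temporal factor of retinal progenitors, rose by 3.75 ± 0.33. mRNA decay genes fell for 17 of 47 and rose for 5 (3 without any of 4 libraries, both cortex Ythdf1 replicates, cortex Ythdf2 replicate 1 and retina Ythdf1 replicate 2), with Upf2 at -3.27. Translation factors fell for 12 of 35, with Eif3a at -3.91 and Eif5b at -4.11. The number that rose was 2, with 5 without cortex Ythdf1 replicate 2 and 0 without cortex Ythdf1 replicate 1, either cortex Ythdf2 library or either retina Ythdf2 library. Zinc finger genes fell for 121 of 338 and rose for 30.

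The remaining lists lay closer to the background. Immediate early and heat shock genes rose for 3 of 24 and fell for 10 (Hsp90aa1, -2.34), or 6 without cortex Ythdf2 replicate 2, retina Ythdf1 replicate 2 or either retina Ythdf2 library. Glycolysis genes rose for 4 and fell for 4 of 23, and 8 rose without cortex Ythdf1 replicate 2. Insulin and mTOR pathway genes rose for 7 of 29 and fell for 4 (2 without cortex Ythdf1 replicate 1, cortex Ythdf2 replicate 1 or retina Ythdf1 replicate 1), and protocadherins rose for 15 of 64 (8 without cortex Ythdf1 replicate 1) and fell for 9. Apart from the immediate early list these shares lie near the 19.5% and 22.9% of all genes, and are no result about the lists. With library totals 1 glycolysis gene rose and 9 fell, 1 and 7 of the insulin and mTOR genes, and 2 and 13 of the protocadherins.

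The inputs gave a similar picture for tissue identity. The 2 retina inputs against the 2 cortex inputs called no gene with edgeR, although 535 genes rose and 905 fell at an unadjusted p under 0.05, and DESeq2 called 244 and 458. Without cortex input replicate 1, which leaves the lone cortex input to be assumed as variable as the retina inputs, 469 genes (3.3%) were higher in retina and 477 (3.35%) in cortex, together 6.65%. Across 14223 genes measured in both kinds of library the IP and input differences then correlated with a Pearson r of 0.747 and a Spearman rho of 0.652, and with both cortex inputs with 0.611 and 0.458. Of the 6026 genes called in the IPs, 88.4% had the same sign in the inputs, and 77.8% with both cortex inputs. Photoreceptor genes had a median of 6.72 in these inputs, retinal progenitor genes 2.63 and cortical patterning genes -3.51. With both cortex inputs these medians were 5.83, 2.06 and -3.69.

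The IP difference minus the input difference was called for 6 genes (0.0422%), all negative: Rnu1b1, Rnu1b2, Gm22620, Gm24305, Gm25360 and Zbtb9. At an unadjusted p under 0.05 there were 1389 positive and 1150 negative genes, and DESeq2 called 581 and 551. Without cortex input replicate 1, 108 genes (0.759%) were positive and 306 (2.15%) negative (2.91% together), and without cortex input replicate 2 there were 1838 and 3396. These counts rest on which cortex input is used. Rnu1b1 and Rnu1b2 are near-identical copies of the U1 spliceosomal RNA and cannot be told apart. Rnu1b1 had 45.6, 70.02, 33.1 and 28.8 CPM in the cortex IPs and 6.38, 7.97, 2.14 and 2.47 in the retina IPs (-3.36 ± 0.26), but 43.1 and 37.2 in the retina inputs against 1.04 and 6.08 in the cortex inputs.

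Several classes of abundant or small RNA separated the IPs from the inputs, as the plot of IP against input differences shows. Ribosomal protein mRNAs had a median of -0.41 in the IPs and of 1.53 in the inputs without cortex input replicate 1. In the IPs 18 of 80 fell (22.5%), near the 22.9% of all genes, and none rose, against 19.5% of all genes. Replication histone mRNAs, which lack a poly(A) tail, fell for 31 of 62 (median -1.13) with an input median of 1.74. The mRNAs of the mitochondrial genome fell for 9 of 13 (median -2.58) with an input median of 1.21. Small nuclear, nucleolar and Cajal body RNAs rose for 34 of 131 (26.0%, against 19.5% of all genes) and fell for 12 (9.16%, against 22.9%). Their median was 0.51, with an input median of 3.54, and with library totals 14 rose and 24 fell. With both cortex inputs the input medians were 1.49, 2.59, -1.23 and 1.99, so that the mitochondrial list changes sign with that library. The difference was called negative, without cortex input replicate 1, for 31 ribosomal protein mRNAs (38.8%), 32 histone mRNAs (51.6%), 7 mitochondrial mRNAs (53.8%) and 48 small RNAs, against 2.15% of all genes. With that library included the 6 genes above were called in all.

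**Figure D3:**
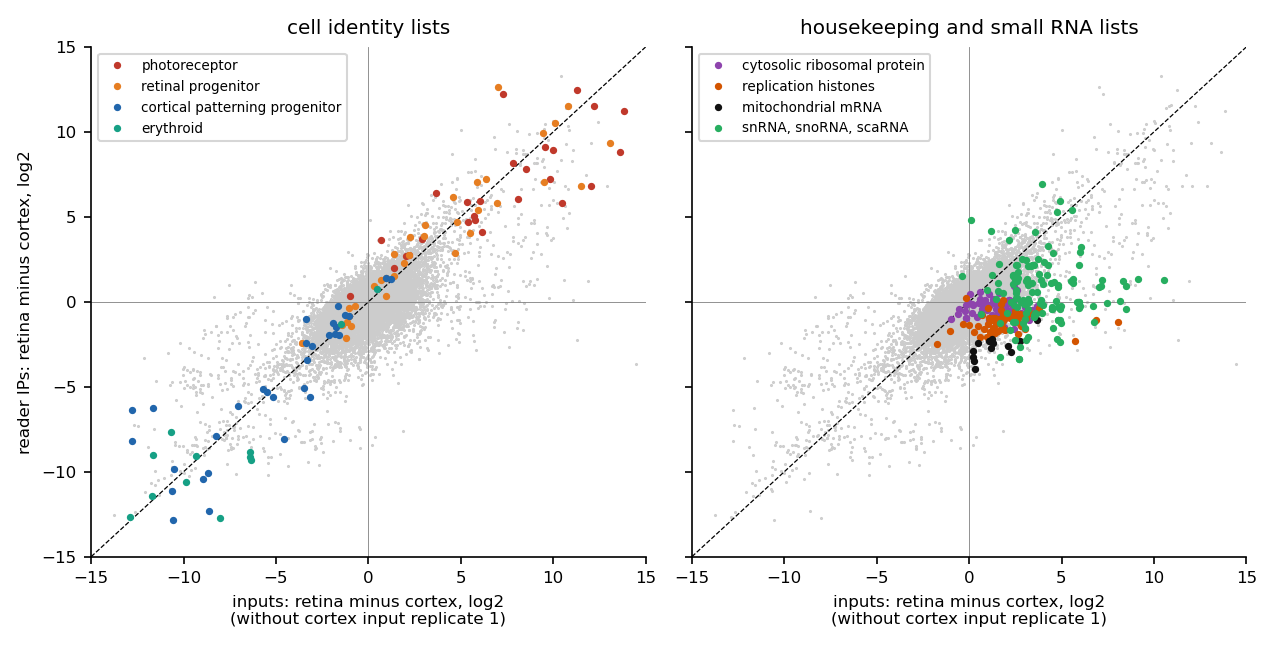
Each point is a gene, with its input difference (retina minus cortex, log2, without cortex input replicate 1) on the horizontal axis and its IP difference on the vertical axis; grey is every gene tested, and the dashed line marks equal differences. Identity lists in the left panel spread along the line, and ribosomal protein, histone, mitochondrial and small RNAs in the right panel lie below it, with IP medians of -0.41, -1.13, -2.58 and 0.51 against input medians of 1.53, 1.74, 1.21 and 3.54.

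Single members show the libraries behind this. mt-Co2, a mitochondrial subunit of cytochrome oxidase, had 442, 633, 117 and 45.1 CPM in the cortex IPs and 34.5, 31.8, 35.1 and 38.1 in the retina IPs (-2.58 ± 0.62, adjusted p = 0.00689). The 2 cortex Ythdf1 libraries were the high ones. Rpl31, a protein of the large ribosomal subunit, had 24.4, 40.8, 15.4 and 23.8 CPM in cortex and 15.3, 13.3, 8.81 and 10.3 in retina (-1.12 ± 0.24), close to each other but without overlap. Hist1h1a, a linker histone, had 139, 271, 53.3 and 152 CPM in cortex and 31.2, 34.2, 20.2 and 20.3 in retina (-2.50 ± 0.36). Leaving out single libraries moved these counts: without cortex Ythdf1 replicate 2 or retina Ythdf1 replicate 1 or 2, 11, 7 and 6 ribosomal protein mRNAs fell, and 10 fell without retina Ythdf2 replicate 1. Without either retina Ythdf1 library 5 mitochondrial and 19 histone mRNAs fell. Of the small RNAs 21 rose without cortex Ythdf1 replicate 1, and 6, 6 and 7 fell without cortex Ythdf1 replicate 2 and without retina Ythdf1 replicates 1 and 2. Mitochondrial mRNAs took 3.75%, 4.96%, 1.99% and 0.551% of protein-coding counts in the cortex IPs and 0.214%, 0.237%, 0.900% and 0.918% in the retina IPs, and the part of mitochondrial content in these results was not tested. Nuclear genes of oxidative phosphorylation rose for 8 of 79 and fell for 1 (median 0.17), with 4 to 13 rising as single libraries were left out and 4 falling without cortex Ythdf2 replicate 2. With library totals 1 rose and 20 fell, with a median of -0.74.

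The antibodies gave overlapping but not equal tissue differences. Fitted alone on separate libraries, the Ythdf1 IPs called 3116 genes (21.9%) higher in retina and the Ythdf2 IPs 2433 (17.1%), with 1391 in both, 44.6% of the former and 57.2% of the latter. For genes higher in cortex the counts were 3344 (23.5%), 2915 (20.5%) and 1839 in both (55.0% and 63.1%). With 1 mean per group, 47.6% of genes were called in either direction with Ythdf1 and 39.2% with Ythdf2. The difference itself was tested as an interaction, which called 11.7% of genes. The tissue difference was higher with Ythdf2 than with Ythdf1 for 1026 genes (7.21%) and lower for 634 (4.46%). These counts moved with single libraries. Without either retina library of an antibody they were 294 to 379 and 54 to 93, without cortex Ythdf1 replicate 2 they were 533 and 194, and without cortex Ythdf2 replicate 2 they were 595 and 146. Without cortex Ythdf1 replicate 1 they were 1360 and 1217, and without cortex Ythdf2 replicate 1 they were 1292 and 1075. On log2(FPKM + 1) limma called 2 and 2, and of the 10 genes named next only Igf2 kept its call.

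Igf2, a fetal growth factor (chr7:142650766-142666816), had 290 and 444 CPM in the cortex Ythdf1 IPs and 16.2 and 9.60 in the cortex Ythdf2 IPs, against 5.28, 6.12, 13.9 and 13.1 in retina. The tissue difference was therefore -6.01 with Ythdf1 and 0.06 with Ythdf2, an interaction of 6.07 ± 0.48 (adjusted p = 2.19e-04). Igf2 is also on the meningeal list. Selenot, an endoplasmic reticulum selenoprotein (chr3:58576636-58593133), was high in the retina Ythdf2 IPs alone, at 73.1 and 64.3 CPM, and at 2.60 and 3.16 in the retina Ythdf1 IPs and 4.795 to 11.99 in cortex (interaction 4.87 ± 0.55). Atp6v1g1, a proton pump subunit, had the same pattern, with 56.9 and 59.9 CPM in the retina Ythdf2 IPs and 2.21 to 11.2 in the other 6 libraries (4.66 ± 0.54). Scarna2, a Cajal body RNA, had 1031 and 1571 CPM in the retina Ythdf2 IPs, 219 and 233 in the retina Ythdf1 IPs and 3.10 to 46.5 in cortex (5.08 ± 0.76), and mt-Nd6, a mitochondrial gene, reached 4.46 ± 0.67.

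In the other direction, Zfp407, a zinc finger gene, had 11.5 and 12.6 CPM in retina with Ythdf1 and 3.30 and 2.11 with Ythdf2, against 5.84, 4.27, 23.8 and 38.6 in cortex (interaction -4.77 ± 0.45, adjusted p = 6.13e-04). Disp2 was higher in retina with Ythdf1 (2.72, adjusted p = 2.948e-04) and did not pass with Ythdf2 (-0.91, adjusted p = 0.103). Prdm13, an amacrine factor, was high in retina with both antibodies and listed at 0 in the cortex Ythdf1 IPs. Dmrta2 and Siah3 were low in retina with both and listed at 0 in the retina Ythdf2 IPs. The fitted interactions of these 3 genes (-5.58, -7.21 and -6.05) rest on 16 counts or fewer per low library and depend on the prior count, and each lost its call without 4 or more of the 8 libraries in turn.

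Among the lists, 25 of 80 ribosomal protein mRNAs had a called interaction, all positive. So did 12 of 13 mitochondrial mRNAs and 21 of 79 nuclear oxidative phosphorylation genes. Over all genes tested 7.21% were called positive and 4.46% negative. With Ythdf1 alone 42 of 80 ribosomal protein mRNAs fell and 1 rose (median -0.92), and with Ythdf2 alone 3 fell and 12 rose (median 0.09). Mitochondrial mRNAs fell for 12 of 13 with Ythdf1 (median -4.47) and for 2 with Ythdf2 (median -0.68). Zinc finger genes went the other way, with 39 negative interactions, and 141 of 338 fell with Ythdf2 against 74 with Ythdf1. Of all genes, 21.9% rose and 23.5% fell with Ythdf1 alone, and 17.1% and 20.5% with Ythdf2 alone. The 74 zinc finger genes that fell and the 12 ribosomal protein mRNAs that rose lie near these shares, and are no result about the lists. In the photoreceptor list 1 interaction of 26 was called, in the negative direction, near the 4.46% of all genes. Of 31 in the cortical patterning list 1 was positive and 4 were negative.

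Longer genes leaned to the cortex IPs. The 12487 protein-coding genes were divided into 5 equal classes of exonic length. The median difference was 0.26, 0.24, 0.13, -0.13 and -0.45 from the shortest class (204 to 2727 bases) to the longest (8072 to 123200 bases). The share higher in cortex was 12.8%, 14.4%, 19%, 26.3% and 39.2%. The inputs without cortex input replicate 1 showed a steeper slope, from 0.64 to -0.73, and with both cortex inputs from 0.60 to -0.91. The pentamer GGACT, the commonest form of the m6A consensus, was counted per kilobase of transcript. Its 5 classes had medians of -0.18, -0.13, -0.00, 0.08 and 0.29 from the fewest to the most matches, and inputs of -0.08, -0.33, -0.23, -0.10 and 0.24, or -0.15, -0.41, -0.33, -0.30 and 0.15 with both cortex inputs. Genes higher in retina had a median exonic length of 4331 bases and 1.16 matches per kilobase, and genes higher in cortex 6381 bases and 0.91. The median number of matches per transcript was 4 in both sets, with median transcript lengths of 3225 and 4354 bases. At least 1 match occurred in 95.7% and 93.4% of them, against 93.2% of all protein-coding genes tested. The classes describe genes that share libraries, and were not tested.

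**Figure D4:**
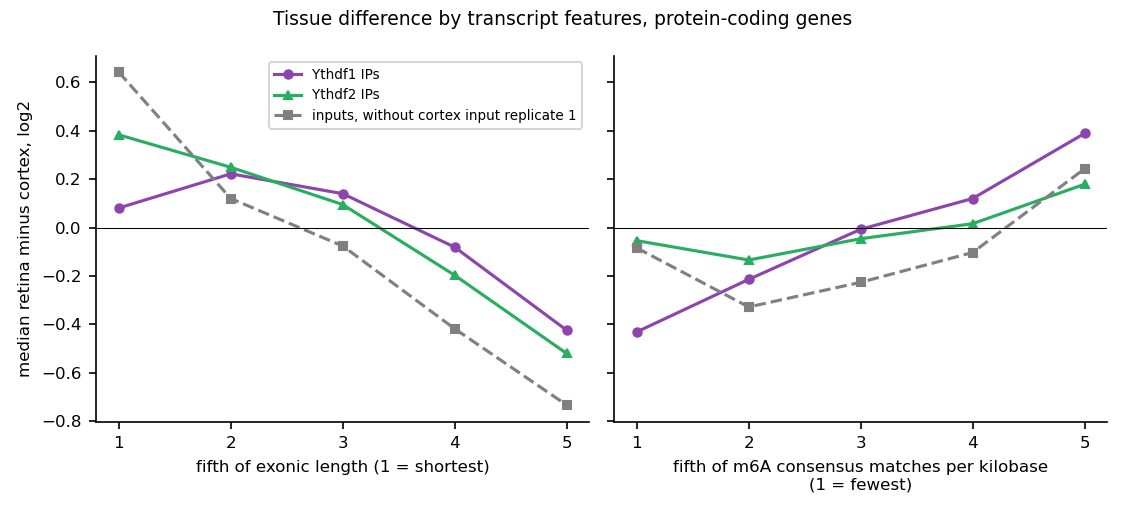
Median tissue difference (retina minus cortex, log2) in 5 equal classes of exonic length (left) and of GGACT matches per kilobase (right) for protein-coding genes, with lines for the Ythdf1 IPs, the Ythdf2 IPs and the inputs without cortex input replicate 1. By length the inputs run from 0.64 in the shortest class to -0.73 in the longest.

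Of 241 lincRNA genes 75 were higher in cortex (31.1%) and 24 in retina (9.96%), and of 322 loci of the annotation's TEC class, whose coding status is unsettled, 165 were higher in cortex (51.2%) and 9 in retina (2.8%), beside 22.9% and 19.5% of all genes. Antisense genes and processed transcripts were higher in cortex for 18.5% and 22.2%. Malat1, a nuclear RNA of speckles (chr19:5795690-5802672), had 1974, 1363, 2937 and 1742 CPM in the cortex IPs and 307, 365, 516 and 569 in the retina IPs (-2.21 ± 0.36, adjusted p = 7.619e-04), while the 2 retina inputs had 301 and 2626 and the 2 cortex inputs 1256 and 524. Kcnq1ot1, the imprinted nuclear RNA, had 33.4 to 45.9 CPM in cortex and 0.886 to 3.07 in retina (-4.66 ± 0.34). Xist, the RNA of the inactive X, had 61.8 to 127 CPM in cortex and 2.35 to 4.46 in retina (-4.83 ± 0.39), and the sex of the animals is not in the labels. The Y chromosome genes Ddx3y, Eif2s3y and Kdm5d were counted in every IP. Their raw counts were 50 to 231, 39 to 126 and 125 to 463 in cortex. In retina they were 5 to 41, 6 to 21 and 37 to 46. The part of sex in the Xist difference was not tested. In retina, Six3os1, which lies beside the eye-field gene Six3, had 69.5 to 146 CPM against 2.37 to 13.6 in cortex (4.03 ± 0.56), and Mir124a-1hg, the host of a neuronal microRNA, rose by 2.88 ± 0.22. Among 64 snoRNA genes 13 rose (20.3%) and 2 fell (3.12%). The rises lie near the 19.5% of all genes and are no result about the class, while the falls lie under the 22.9%. Scarna10, a Cajal body RNA and so of another class, rose from 11.5 to 97.2 CPM in cortex to 320 to 796 in retina (4.08 ± 0.44).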

How the data were processed

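RIP-seq was measured in 12 mouse libraries, of which the 8 reader IPs form the comparison and the 4 inputs its background. Per the labels' protocols, tissue was dissociated, the EZ-Magna RIP kit was used and 100 ng of RNA entered each TruSeq Stranded library. STAR 2.5, HTSeq and the build GRCm38 come from the submitters' processing notes. For the annotation release, filters and strand setting, the processing is not given in the sources used here. The authors deposited raw read counts per gene and, separately, FPKM values.

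Genes with at least 10 counts in at least 4 IPs were fitted with edgeR 4.0.16 (R 4.3.3): TMM scaling, robust glmQLFit, tissue plus antibody (5 residual degrees of freedom), two-sided, Benjamini-Hochberg adjustment over all genes, called under 0.05. The interaction model left 4 degrees of freedom. Standard errors (±) were worked back from the test, as the absolute log2 difference divided by the square root of its F statistic. They are rough for genes at or near 0 in a tissue, whose log2 values depend on the prior count. Inputs were fitted on the same genes, and the IP difference minus the input difference was fitted on all 12 libraries with 1 mean per group. Composition was compared with exact permutation tests. Alternatives used DESeq2 1.42.0 and limma 3.58.1 on the deposited FPKM plus 1 or 0.1. The fits were tested on simulated data. A floor of 3 counts per library (0.0325 to 0.188 CPM in the IPs) replaced levels of 0 in bounds, and 95% intervals of ratios are exact. Both reflect counting error alone, because no molecular identifiers separate PCR copies.

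Symbols, classes and coordinates are from GENCODE M21, which matched 52403 of 52550 identifiers and left 147 without a match. The table's columns were matched to the labels by name. Named genes passed adjusted p, a 2-fold change, a mean of 5 CPM and no overlap between tissues. Among these the 12 protein-coding genes and 4 long noncoding genes with the largest change each way were taken, the 3 members of each list each way with the smallest p, and the 5 interactions each way that passed the same conditions apart from overlap. Further list members and the genes of small counts were named after their values were seen. Some genes that this rule names, or that are list members, are not reported here. The comparison and its 40 gene lists were chosen with earlier results of these data known.

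Replicate numbers are in the labels, but same-numbered libraries did not deviate together (correlations of -0.059 to 0.07), so the number was not used as a block.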

Additional observations from a re-analysis of the deposited data

Results flagged for a closer look

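Among the 4 retina IPs, Ythdf2 replicate 1 had a ribosomal RNA share of 85.4%, below the other 3 by most of the group's range, and Ythdf2 replicate 2 had a count-weighted exonic length of 6591 bases, below the others in the same way. Chance sets apart about 1 in 20 groups of this size.

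The tissue difference differed between the antibodies, by the test of the difference itself, for the genes with the largest called interactions. The difference with Ythdf2 exceeded that with Ythdf1 by 6.07 on the log2 scale for Igf2, 5.08 for Scarna2, 4.87 for Selenot, 4.66 for Atp6v1g1 and 4.46 for mt-Nd6. It was lower, with a value of -7.21 for Dmrta2, -6.05 for Siah3, -5.58 for Prdm13, -4.77 for Zfp407 and -3.63 for Disp2. The sizes for Dmrta2, Siah3 and Prdm13 depend on the prior count, because each gene is unread in some libraries. Each of these genes also lost its call when some single libraries were left out.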

How the results depend on the processing

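The tissue differences of the genes named by rule kept their direction under the alternatives run, with the exceptions given here. Scaling mattered most. With library totals 599 genes were higher in retina and 5503 in cortex, with limma on log2(FPKM + 1) 625 and 5281, and on log2(FPKM + 0.1) 700 and 5677, against 2773 and 3253. Library totals moved the median of all genes to -0.98, and 23 named genes besides Pcdh1 lost their call, all of them higher in retina. The difference of Pcdh1 became -0.007 there, and that of Ythdf1 mRNA became -0.543, and -0.421 and -0.458 with both FPKM settings. In the Ythdf1 IPs alone Ythdf2 mRNA differed by 0.055. DESeq2, size factors, protein-coding scaling, other filters, dropping the antibody term and, chosen after seeing the data, dropping ribosomal RNA genes kept both counts within 1.5 times. Leaving out single libraries gave 2086 to 2721 and 2660 to 3310.

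Interaction counts were 91 positive and 1205 negative with library totals, 2 and 2 on log2(FPKM + 1), and 1292 negative with no filter. Leaving out single libraries gave 294 to 1360 positive and 54 to 1217 negative. Dmrta2, Siah3 and Prdm13 lost their interaction calls without some of the libraries, and all 10 named interactions except Igf2 did on log2(FPKM + 1).

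For the IP difference minus the input difference, library totals gave 0 negative genes, no filter 619 positive and 413 negative, and DESeq2 581 and 551. Leaving out single libraries gave 0 to 1838 positive and 0 to 3396 negative. For the inputs DESeq2 gave 244 genes higher in retina and 458 in cortex, and leaving out single inputs 21 to 1575 and 0 to 1200. The cause of these changes was not tested.

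With the replicate number as a block, 2528 genes were higher in retina and 2963 in cortex, the interaction called 873 and 470, the IP minus input contrast 0 and 5, and the inputs 24 and 39. Same-numbered libraries did not deviate together, so the numbers do not pair the samples.

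Protein-coding depth, with 3 counts worth 0.0325 to 0.188 CPM in the IPs, limits bounds for genes listed at 0. With 4 against 4 libraries the exact permutation tests cannot go below 0.0286.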
